A study of Mus musculus with 12 samples.

Results

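The transcripts of 9 genes of the loop of Henle and the distal tubule were followed in embryonic mouse kidneys that lack *Bdkrb2*, the gene of the bradykinin B2 receptor, and in wild-type (WT) kidneys. The genes were listed by name: *Slc12a1*, *Kcnj1* and *Slc12a3* encode transport proteins, *Umod*, *Spp1* and *Sostdc1* encode secreted proteins, and *Pou3f3*, *Tfap2b* and *Irx3* encode transcription factors. All 9 were found on the array through the accession of their probes, among 17305 genes with a symbol. They had 12 of the 41174 probes, and 8 of these probes, for 7 genes, were bright enough to be tested, among 22979 tested probes in all.

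Null and WT embryos had a C57BL/6 background and came from matings of heterozygous parents, and every mother ate food with 5% sodium, so that no group was free of the salt. Kidneys were taken at embryonic day 14.5. Null RNA was hybridised against WT RNA on 12 arrays: on 6 arrays null RNA carried Cy5 (null/WT) and on 6 it carried Cy3 (WT/null), with 3 replicates per orientation and 2 arrays per replicate. Replicates numbered 1, 2 and 3 occur in both orientations, and each number filled 1 slide, so that number and slide cannot be told apart. The labels do not say how many embryos a sample held, or whether both orientations of a number used the same RNA. If they did, spread within a number is technical and the p-values are too small.

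The thick ascending limb of the loop of Henle reabsorbs sodium, potassium and chloride without water. Its cotransporter NKCC2 (*Slc12a1*) needs the channel ROMK (*Kcnj1*) to return potassium to the tubule fluid, and the limb secretes uromodulin (*Umod*), the most abundant protein of normal urine. The distal convoluted tubule that follows uses the cotransporter NCC (*Slc12a3*). In the developing kidney these segments form from the young nephron, and their transporters are switched on as it matures.

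Of the spots on an array, 41.2% to 59.0% gave a Cy3 signal well above background, and 51.1% to 60.0% a Cy5 signal. The *Bdkrb2* probe did so in 0 null channels and 1 WT channel of 12 each, so that it could not check the genotype. The X-inactivation transcript *Xist* was detected in all 4 null and all 4 WT channels of number 1, but in 4 null and 0 WT channels of number 2 and likewise of number 3. The Y-linked *Ddx3y* was detected in 0 null and 4 WT channels of number 2 and again of number 3, and in 0 channels of either genotype in number 1. These sex-linked transcripts thus moved with genotype in numbers 2 and 3 and not in number 1, and the part of sex in the results below was not tested. Log2 ratios were noisier on 1 array, the first of the pair for WT/null replicate 3, with an SD of 0.381 against 0.164 to 0.256 on the others.

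The transport genes *Slc12a1* and *Kcnj1* and the secreted-protein genes *Umod* and *Spp1* had clearly unequal transcript levels in null and WT kidneys of number 3, and nearly equal ones in number 1. *Slc12a1* was 3.18-fold higher in null kidneys of number 3, *Kcnj1* 3.25-fold, *Spp1* 2.61-fold and *Umod* 1.85-fold (means of 2 orientations). The difference between the 3 numbers passed for these 4 of the 7 tested genes (limma F-test of the number beside the dye, adjusted p under 0.05), against 1.48% of all tested probes. Over all 6 replicates together, 0 of the 7 genes passed the test of null over WT (limma adjusted p under 0.05, passed by 0.0392% of tested probes). By unadjusted p under 0.05, 3 of the 7 did (*Slc12a1*, *Spp1* and *Sostdc1*), all higher in null, against 7.01% of tested probes in either direction and 4.41% higher in null. With both orientations of a number averaged as a block, 0 passed after adjustment (0.0174% of tested probes). Before adjustment 1 passed (*Spp1*), against 3.3% of tested probes. The transcription factor genes *Pou3f3* and *Tfap2b* stood near 0 in all 3 numbers.

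**Figure D1:**
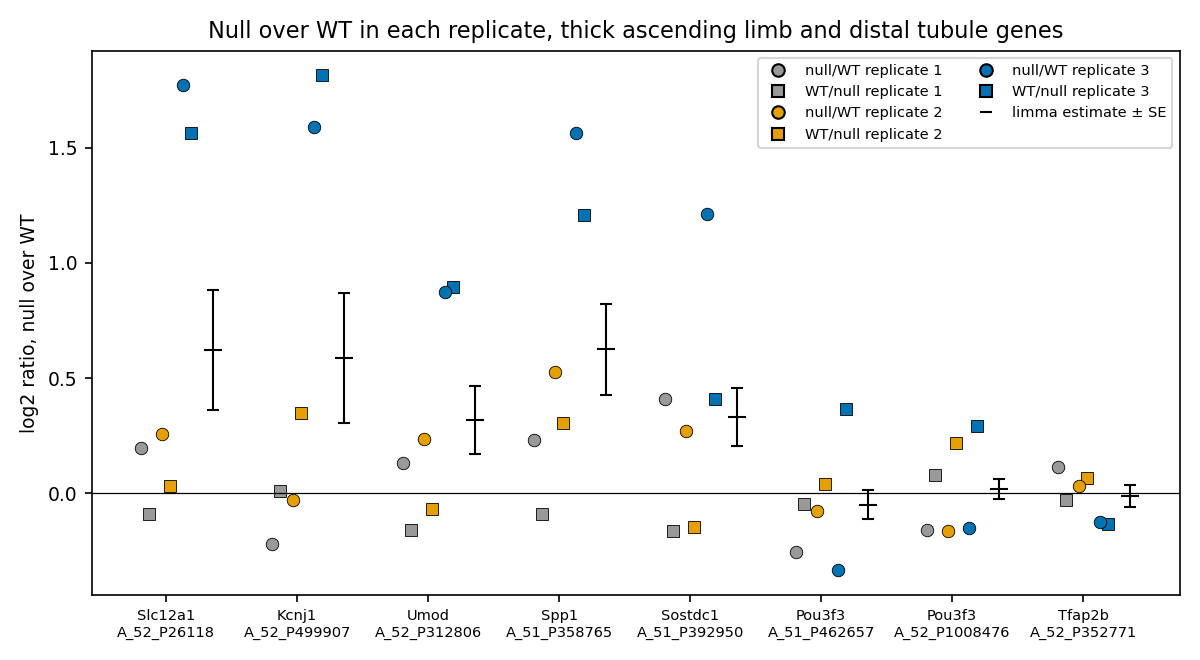
Log2 ratio of null over WT (vertical axis) for the 8 tested probes (horizontal axis), with a circle for each null/WT replicate, a square for each WT/null replicate, a colour per replicate number, and the limma estimate over 6 replicates with its SE in black. The 2 blue points of number 3 lie above the other 4 for *Slc12a1*, *Kcnj1*, *Umod* and *Spp1*, and not for *Sostdc1*, *Pou3f3* or *Tfap2b*.

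*Slc12a1* (probe A_52_P26118, chromosome 2) encodes the loop diuretic target NKCC2. Its log2 ratio of null over WT was 0.20, 0.26 and 1.77 in null/WT replicates 1, 2 and 3 and -0.09, 0.03 and 1.56 in WT/null replicates 1, 2 and 3. Only number 3 gave a large ratio, and both of its orientations and all 4 of its arrays (1.55 to 1.82) agreed on it. The estimate over 6 replicates was 0.62 ± 0.26 (SE, limma adjusted p = 0.707, positive in 5 of 6), and the numbers differed with an adjusted p of 0.00171 (limma F-test). Without number 3 that difference was lost (adjusted p = 0.464), and the estimate was 0.36 without either one of its replicates and 0.10 without both.

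The levels of each genotype are given beside the ratio, and levels of different numbers come from different slides. The *Slc12a1* level, as log2 intensity, was 8.66, 10.79 and 10.62 in null kidneys of numbers 1, 2 and 3, and 8.61, 10.65 and 8.95 in WT kidneys of numbers 1, 2 and 3 (each the mean of 2 orientations). Both genotypes were thus low in number 1 and high in number 2, while in number 3 the null kidneys were close to the high level and the WT kidneys close to the low one. Between numbers 1 and 2 the level differed 4.38-fold in null and 4.11-fold in WT kidneys, which is more than the genotypes differed in any number. The groups of 6 null and 6 WT levels overlapped, at 8.54 to 10.85 in null and 8.59 to 10.70 in WT.

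*Kcnj1* (A_52_P499907, chromosome 9), which encodes the potassium channel ROMK, followed the same course. Its log2 ratio was -0.22, -0.03 and 1.59 in null/WT replicates 1, 2 and 3 and 0.01, 0.35 and 1.81 in WT/null replicates 1, 2 and 3. Its level was 7.42, 9.82 and 9.60 in null kidneys of numbers 1, 2 and 3, against 7.53, 9.66 and 7.90 in WT kidneys. From number 1 to number 2 the level thus differed 5.26-fold in null and 4.38-fold in WT. The estimate was 0.59 ± 0.28 (SE, limma adjusted p = 0.710, positive in 4 of 6 replicates), and the numbers differed with an adjusted p of 0.00177 (limma F-test). The estimate was 0.31 without WT/null replicate 3, 0.30 without null/WT replicate 3 and 0.03 without both.

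*Slc12a3* (A_51_P445985, chromosome 8), the thiazide-sensitive cotransporter gene that defines the distal convoluted tubule, gave no signal well above background in either genotype (0 of 12 channels each). No ratio is given for it, and the distal convoluted tubule was thus not represented by its defining gene.

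*Umod* (A_52_P312806, chromosome 7) had ratios over a smaller range. Its log2 ratio was 0.13, 0.23 and 0.87 in null/WT replicates 1, 2 and 3 and -0.16, -0.07 and 0.89 in WT/null replicates 1, 2 and 3. Numbers 1 and 2 straddled 0, and both replicates numbered 3 stood apart. Its level was 7.36, 8.03 and 8.16 in null kidneys of numbers 1, 2 and 3, and 7.37, 7.95 and 7.28 in WT kidneys. The estimate was 0.32 ± 0.15 (SE, limma adjusted p = 0.710, positive in 4 of 6). The difference between numbers passed (limma F-test, adjusted p = 0.0376), but it was lost in 11 of 16 other settings, among them those without number 1 (0.185), number 2 (0.0826) or number 3 (0.439).

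*Spp1* (A_51_P358765, chromosome 5) encodes osteopontin, a secreted glycoprotein bound by integrins, which kidney tubules, bone and macrophages all make. Its probe was printed on 10 spots of each array, and the SD of the log2 ratio over those spots was 0.0236 to 0.0844, so that spot error was small beside the differences between numbers. The log2 ratio was 0.23, 0.53 and 1.56 in null/WT replicates 1, 2 and 3 and -0.09, 0.31 and 1.21 in WT/null replicates 1, 2 and 3. It was thus the gene of the 7 with the highest ratio in number 2 (mean 0.42), with both orientations positive there. Its level was 8.07, 9.59 and 9.41 in null kidneys of numbers 1, 2 and 3, against 8.0, 9.17 and 8.03 in WT kidneys. The estimate was 0.62 ± 0.20 (SE, limma adjusted p = 0.630, positive in 5 of 6), and the numbers differed with an adjusted p of 0.00505 (limma F-test). That difference did not pass without WT/null replicate 1 (0.113), without null/WT replicate 1 (0.112), without both replicates numbered 1 (0.105), or in the authors' deposited table (0.0577).

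*Sostdc1* (A_51_P392950, chromosome 12) encodes a secreted antagonist of bone morphogenetic proteins that also modulates Wnt signals. It lies on the chromosome of *Bdkrb2*. Its log2 ratio was 0.41, 0.27 and 1.21 in null/WT replicates 1, 2 and 3 and -0.16, -0.15 and 0.41 in WT/null replicates 1, 2 and 3, where 1 of the 2 arrays of WT/null replicate 1 was left out as an outlier spot. Every null/WT value was above the WT/null value of its number, and the dye coefficient was 0.30 (limma adjusted p = 0.157). The level was 10.76, 11.50 and 11.44 in null kidneys of numbers 1, 2 and 3, and 10.63, 11.44 and 10.63 in WT kidneys, again low, high and split. The estimate was 0.33 ± 0.13 (SE, limma adjusted p = 0.691, positive in 4 of 6). The difference between numbers missed the threshold (limma F-test, adjusted p = 0.0615) and passed in 5 of 16 other settings, with 0.00945 when the noisier array was left out. Median centring in place of loess gave an estimate of 0.62.

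**Figure D2:**
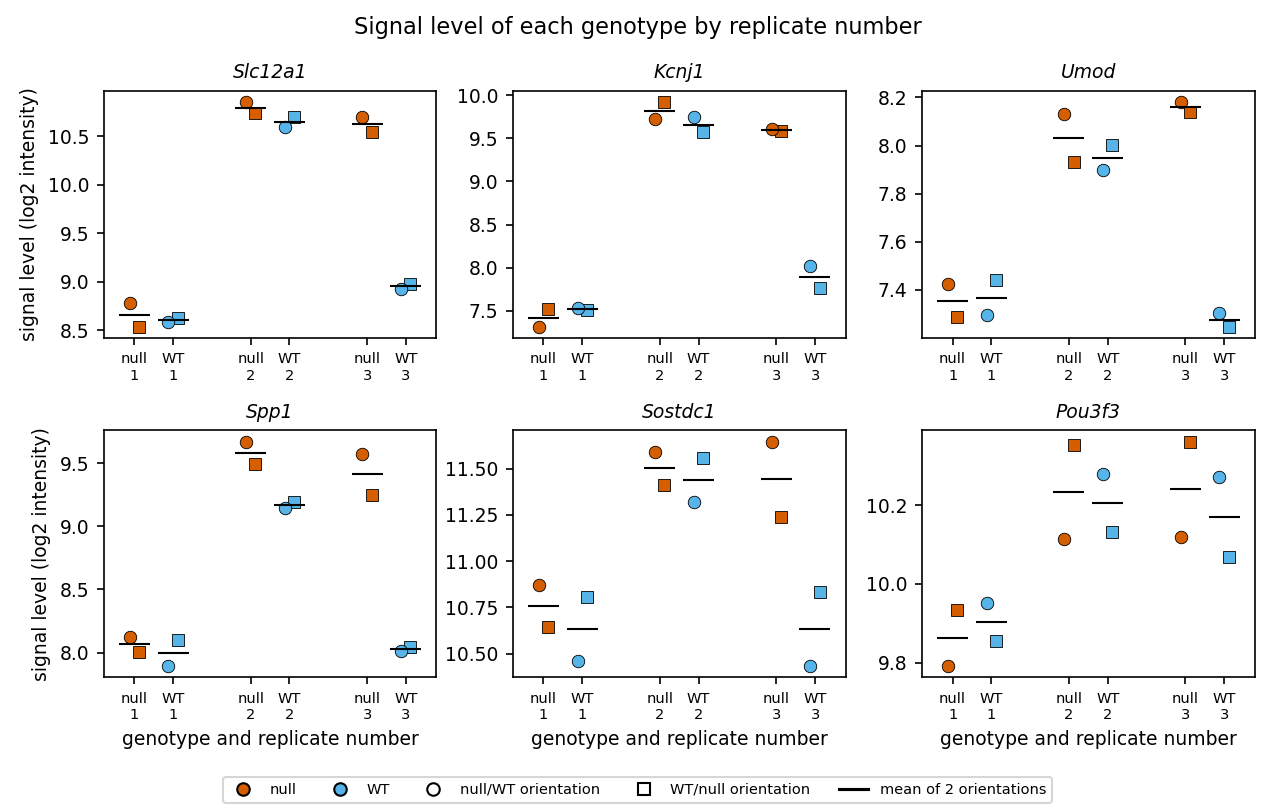
Signal level in log2 intensity (vertical axis) of null and WT channels for replicate numbers 1, 2 and 3 (horizontal axis), with circles for null/WT and squares for WT/null replicates and a line at their mean. For *Slc12a1*, *Kcnj1*, *Umod*, *Spp1* and *Sostdc1* both genotypes are low in number 1 and high in number 2, and in number 3 null is high and WT low, while the scale of *Pou3f3* spans a much narrower range.

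*Pou3f3* (chromosome 1) encodes a POU-domain factor that mouse kidneys need to form the loop of Henle. Its brighter probe, A_52_P1008476, gave log2 ratios of -0.16, -0.16 and -0.15 in null/WT replicates 1, 2 and 3 and 0.08, 0.22 and 0.29 in WT/null replicates 1, 2 and 3. The sign followed the dye and not the genotype, and the dye coefficient was -0.18 (limma adjusted p = 0.0305, passed by 13.5% of tested probes). The genotype estimate was 0.02 ± 0.04 (SE, limma adjusted p = 0.882), and the numbers did not pass (adjusted p = 0.692) except with median centring in place of loess (0.0487, with an estimate of 0.197). The level was 9.86, 10.23 and 10.24 in null kidneys of numbers 1, 2 and 3, and 9.90, 10.21 and 10.17 in WT kidneys. Number 3 thus showed no split between the genotypes for this gene. The dimmer probe, A_51_P462657, gave -0.05 ± 0.06 (SE, limma adjusted p = 0.797), and its levels ran the other way, at 7.32, 6.97 and 7.30 in null and 7.47, 6.98 and 7.28 in WT kidneys.

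*Tfap2b* (chromosome 1), the gene of the factor AP-2 beta, which mouse kidneys need for the distal convoluted tubule, had 3 probes. A_51_P248344 and A_51_P248345 gave no signal well above background (0 of 12 channels in each genotype). A_52_P352771 did in 9 null and 10 WT channels of 12 and gave log2 ratios of 0.12, 0.03 and -0.13 in null/WT replicates 1, 2 and 3 and -0.03, 0.07 and -0.13 in WT/null replicates 1, 2 and 3. The estimate was -0.01 ± 0.05 (SE, limma adjusted p = 0.938, positive in 3 of 6), and the sign turned under 6 of 16 other settings. *Irx3* (A_51_P518757, chromosome 8), a homeobox gene of the middle nephron segments, had no channel above background in either genotype (0 of 12 each), and no ratio is given.

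Taken by number, the 7 tested genes were above 0 in 4, 7 and 6 cases in numbers 1, 2 and 3, and 0 of them had the same sign in all 6 replicates (2.92% of tested probes did). Both replicates numbered 3 lay above the other 4 for 4 of the 7, against 7.94% of tested probes. The mean of number 3 was 0.5 or more for 5 of the 7, against 1.07%. The median of the 7 genes was 0.04, 0.08 and 0.88 in numbers 1, 2 and 3, against 0.003, -0.005 and -0.003 for all tested genes. The genes were listed with such values known, so these shares describe them and are no test.

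For *Slc12a1*, *Kcnj1* and *Spp1* the level differed by over 1 log2 unit between numbers 1 and 2 in both genotypes, and between numbers 2 and 3 in WT kidneys only. The null level of number 2 was at least 1 log2 unit above that of number 1 for 3 of the 7 genes (*Slc12a1*, *Kcnj1* and *Spp1*), against 0.531% of tested probes. The WT level was so for the same 3, against 0.544%. From number 2 to number 3, the null level was lower by 1 or more for 0 of the 7 (0.17% of tested probes). The WT level was lower by that much for 3 of the 7, again *Slc12a1*, *Kcnj1* and *Spp1* (0.4%). Across the 12 levels (6 null and 6 WT), Pearson's r with *Slc12a1* was 0.989 for *Kcnj1*, 0.980 for *Spp1*, 0.956 for *Umod*, 0.934 for *Sostdc1*, 0.698 for *Pou3f3* and -0.113 for *Tfap2b*. These r values are descriptions, since levels of a number share a slide and a scaling step. In whole kidneys, fewer cells of a segment and less RNA per cell cannot be told apart.

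Because *Slc12a1*, *Kcnj1*, *Umod* and *Spp1* varied together, the 250 bases before their annotated starts are shown, from RefSeq's table of promoters (GRCm38.p6, matched by symbol, with 8 of the 9 genes matched). The array header names mm9, and no array coordinate is given. Letters in capitals mark matches on either strand to GTTAAT, part of the site of the factor HNF1, or to TATAAA, the TATA box.
Slc12a1, chr2:125152350-125152599, plus strand: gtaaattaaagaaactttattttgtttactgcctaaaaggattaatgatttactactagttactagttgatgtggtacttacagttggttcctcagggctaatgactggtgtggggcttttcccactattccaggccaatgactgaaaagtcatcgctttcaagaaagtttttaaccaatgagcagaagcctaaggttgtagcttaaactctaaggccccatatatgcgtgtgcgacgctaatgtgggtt
Kcnj1, chr9:32393735-32393984, plus strand: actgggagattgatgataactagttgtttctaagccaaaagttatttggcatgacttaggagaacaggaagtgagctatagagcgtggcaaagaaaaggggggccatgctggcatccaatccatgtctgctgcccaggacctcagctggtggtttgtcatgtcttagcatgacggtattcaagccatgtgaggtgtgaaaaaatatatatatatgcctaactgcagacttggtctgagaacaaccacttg
Umod, chr7:119479263-119479512, minus strand: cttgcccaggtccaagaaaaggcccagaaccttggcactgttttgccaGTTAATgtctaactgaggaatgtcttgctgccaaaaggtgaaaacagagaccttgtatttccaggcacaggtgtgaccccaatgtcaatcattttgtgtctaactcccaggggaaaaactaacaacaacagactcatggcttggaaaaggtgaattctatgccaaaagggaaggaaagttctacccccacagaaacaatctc
Spp1, chr5:104434861-104435110, plus strand: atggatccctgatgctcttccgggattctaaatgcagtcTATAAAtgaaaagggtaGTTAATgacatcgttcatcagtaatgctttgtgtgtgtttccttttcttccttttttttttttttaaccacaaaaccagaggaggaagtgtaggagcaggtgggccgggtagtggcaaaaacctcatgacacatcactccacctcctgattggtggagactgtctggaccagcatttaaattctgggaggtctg
*Umod* had GTTAAT 202 to 197 bases before its start and *Spp1* 194 to 189 bases before the start shown, and *Tfap2b*, whose level did not follow *Slc12a1*, had it 208 to 203 bases before. The *Slc12a1* and *Kcnj1* windows held none of the letters searched. GTTAAT occurs in 6.43% of 32841 such windows and TATAAA in 12.4%. The AP-2 letters GCCNNNGGC (13.7% of windows) matched once, in *Slc12a3*, whose window also held TATAAA, and the octamer ATGCAAAT of POU factors (1.6%) matched once, before a second annotated start of *Spp1*. A match is a description of the letters and not of binding.

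In the wider gene lists, 0 genes passed the test of null over WT. The lists held loop and distal tubule genes, and also genes of the WNK pathway, nephron patterning, *Sostdc1* protein partners and osteopontin receptors. Of 72 listed genes, 58 were tested, and 0 passed higher and 0 lower in null after limma's adjustment. Before it 7 passed, against 7.01% of all tested probes. The 7 held 0 thick ascending limb genes, 1 distal tubule gene, 3 patterning genes, 1 partner gene and 2 receptor genes. The median log2 ratio of the 58 was 0.07, against -0.003 for all tested genes. The difference between numbers passed for 2 of 9 tested thick ascending limb genes and 2 of 8 tested distal tubule genes. In all it passed for 4 of the 58, against 1.48% of all tested probes. These were *Kcnj16*, a potassium channel subunit gene (0.02, -0.08 and 0.61 in numbers 1, 2 and 3, limma adjusted p = 0.0389), *Cldn10*, a tight junction gene of the thick ascending limb (-0.06, 0.01 and 0.71, adjusted p = 0.0305), *Fxyd2*, a subunit gene of the sodium pump (-0.18, 0.03 and 1.26, adjusted p = 0.00347), and *S100g*, a calcium-binding protein gene (0.05, -0.01 and 0.94, adjusted p = 0.0108). All 4 had their high value in number 3, as *Slc12a1* did. Not all of the distal tubule list did so, and its brightest gene, *Calb1*, was lowest there (0.03, -0.01 and -0.14, adjusted p = 0.447). *Emx1* of that list stood at 0.08, 0.19 and 0.25 (adjusted p = 0.435), and the list medians were 0.04, -0.01 and 0.24 in numbers 1, 2 and 3. *Cldn16*, a magnesium and calcium pore gene of the same limb, stood at -0.01, 0.09 and 0.59 in numbers 1, 2 and 3 (adjusted p = 0.0742), and *Hpn*, the gene of the protease hepsin that releases uromodulin, at -0.15, 0.10 and 0.21.

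Genes of the kinases that switch NKCC2 and NCC on showed small ratios. Of all tested genes, 48.1% were above 0 over the 6 replicates. In the list of the WNK pathway, 2 of 7 tested genes were above 0 and 0 passed either test. *Stk39*, the kinase gene of SPAK, stood at -0.05, -0.09 and -0.01 in numbers 1, 2 and 3, *Wnk4* at -0.11, 0.02 and -0.19, *Wnk1* at 0.20, 0.17 and -0.06 and *Sgk1* at 0.13, -0.07 and 0.21. In the list of nephron patterning, 12 of 15 genes were above 0 with a median of 0.07, and 0 passed either test. *Irx1*, a relative of *Irx3*, stood at 0.08, -0.05 and 0.38 in numbers 1, 2 and 3, while *Lhx1* (-0.01, 0.12 and -0.05), *Gata3* (0.10, 0.13 and -0.02) and *Dll1* (0.09, -0.003 and 0.10) showed no large value in number 3. Of the genes for partners of the *Sostdc1* protein, 4 of 8 were above 0 and 0 passed, with *Lrp5*, a Wnt co-receptor gene, at 0.20 ± 0.06 (SE, limma adjusted p = 0.580). All 7 receptor genes for osteopontin were above 0 by small amounts and 0 passed. The 4 brightest were *Itgb5* at 0.05, *Itga8* at 0.07, *Itga9* at 0.08 and *Itgav* at 0.12 ± 0.05 (SE, limma adjusted p = 0.710 for *Itgav*). Of thin limb genes 2 of 4 were above 0 and 0 passed, with *Cryab*, a small heat shock protein gene, at -0.04, 0.13 and 0.57 in numbers 1, 2 and 3.

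**Figure D3:**
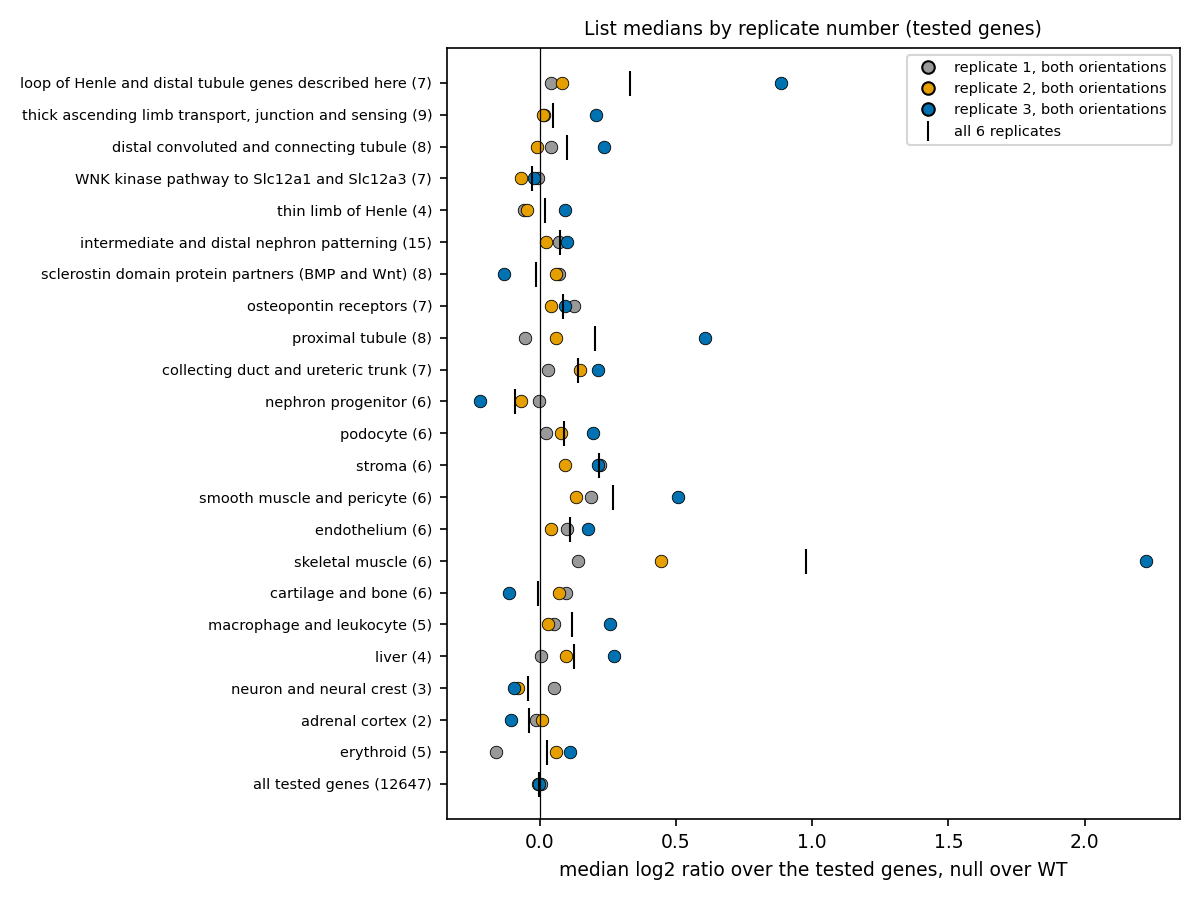
Median log2 ratio of null over WT (horizontal axis) over the tested genes of each list (rows, with their number in brackets), by replicate number in colour and over all 6 replicates as a black bar. The 7 loop and distal tubule genes stand at 0.88 in number 3, between proximal tubule genes at 0.61 and skeletal muscle genes at 2.23, while all tested genes lie at 0.

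Among the marker lists, skeletal muscle and proximal tubule had the highest medians in number 3, where the loop and distal tubule genes were also high. Some markers of other lists, given below, were high there too. Over all 6 replicates, 48.1% of all tested genes were above 0, and the numbers differed past the threshold for 1.48% of all tested probes. All 8 tested of 9 proximal tubule markers were above 0 over all replicates, with medians of -0.05, 0.06 and 0.61 in numbers 1, 2 and 3, with 3 of them past the threshold between numbers (limma F-test), and *Cubn* was not above background. *Fbp1*, a proximal gluconeogenic enzyme gene, had levels of 7.47, 10.71 and 10.22 in null kidneys of numbers 1, 2 and 3, against 7.55, 10.13 and 7.98 in WT kidneys, the same low, high and split order as *Slc12a1*. Of 8 skeletal muscle markers 6 were tested and all were above 0, with medians of 0.14, 0.45 and 2.23, and the numbers differed past the threshold for 5 of them (limma F-test), while *Ckm* and *Actn2* were not above background. The summed intensity of those 6 was 912 to 4395 in null and 848 to 1082 in WT replicates. *Myh3*, an embryonic muscle myosin gene, had levels of 6.72, 7.53 and 9.99 in null kidneys of numbers 1, 2 and 3, against 6.58, 7.12 and 7.07 in WT kidneys. The part of muscle RNA in the null kidneys of number 3 was not tested.

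**Figure D4:**
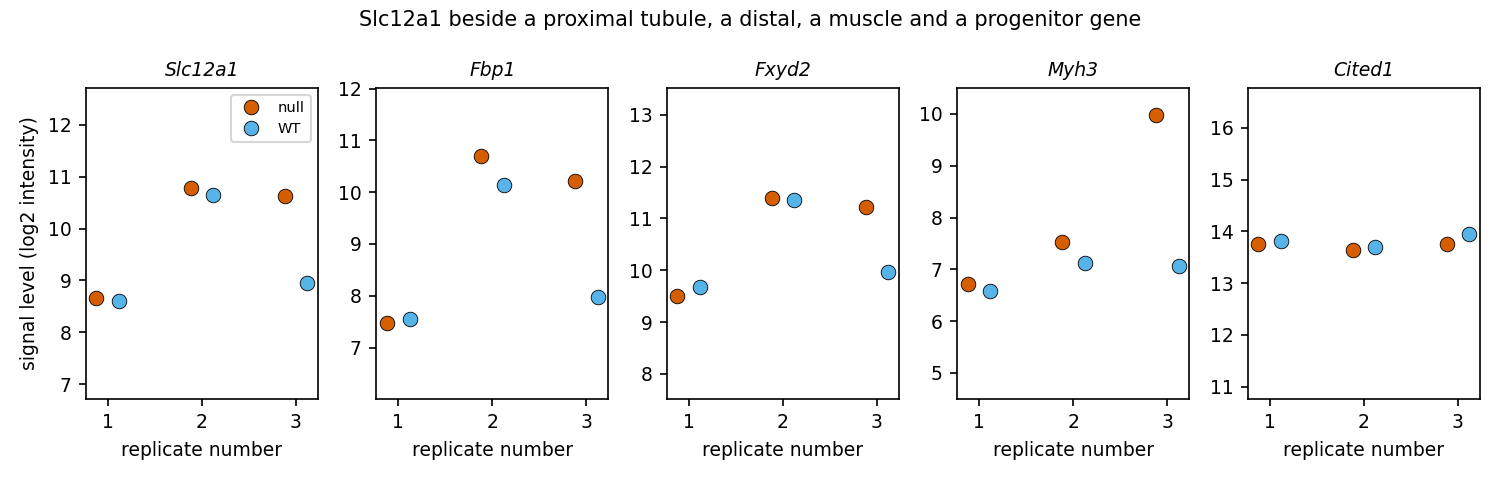
Signal level in log2 intensity (vertical axis, spanning the same 6 units in each panel) of null and WT channels by replicate number (horizontal axis), each point the mean of 2 orientations. *Fbp1* and *Fxyd2* repeat the order of *Slc12a1*, *Myh3* is high in the null kidneys of number 3 only, and *Cited1* varies little.

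*Spp1* is also made by bone and macrophages, whose markers were measured too. Cartilage and bone markers were above 0 in 3 of 6 and had a median of -0.11 in number 3, and *Ibsp*, *Runx2*, *Alpl* and *Matn1* were not above background. The numbers differed past the threshold for 1 of the 6, the cartilage collagen gene *Col2a1*, against 1.48% of all tested probes. It stood at 0.34, 0.09 and -0.55 in numbers 1, 2 and 3 (limma F-test, adjusted p = 0.020). All 5 tested macrophage and leukocyte markers were above 0, with medians of 0.05, 0.03 and 0.26 in numbers 1, 2 and 3. All 6 nephron progenitor markers were below 0, with a median of -0.22 in number 3, and *Cited1* stood at -0.05, -0.06 and -0.20. In number 3 the medians were 0.51 for smooth muscle (6 of 6 above 0 over all replicates), 0.21 for stroma (6 of 6), 0.20 for podocytes (6 of 6), 0.18 for endothelium (6 of 6) and 0.21 for collecting duct and ureteric trunk (5 of 7). They were 0.27 for liver (4 of 4), 0.11 for erythroid genes (3 of 5), -0.10 for neurons and neural crest (0 of 3) and -0.11 for the adrenal cortex (0 of 2). The F-test of the numbers also passed for 2 of 6 smooth muscle and 1 of 7 collecting duct markers. It passed for 1 of 4 liver and 1 of 5 erythroid markers. The liver gene *Afp* stood at -0.07, 0.05 and 1.45 in numbers 1, 2 and 3 (limma F-test, adjusted p = 0.00227). The collecting duct gene *Aqp3* stood at 0.17, 0.28 and 1.03 (adjusted p = 0.0205). Number 3 did not stand out for stroma, whose medians were 0.22 and 0.09 in numbers 1 and 2, against 0.19 and 0.13 for smooth muscle. By unadjusted limma p under 0.05, 4 of 6 stroma and 6 of 6 smooth muscle markers were higher in null. So were 6 of 6 skeletal muscle and 4 of 7 collecting duct and ureteric trunk markers, against 4.41% of all tested probes. After adjustment 0 markers passed. The part of these cell types in the results of the loop and distal tubule genes was not tested.

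The genes whose ratio over the 12 arrays was most like that of *Slc12a1*, among 12647 tested genes, were *Slc27a2* (Pearson's r = 0.997), *Mt2* (0.997), *Aadat* (0.994), *Tinag* (0.993), *Slc34a1* (0.992) and *Mt1* (0.991). *Slc27a2* encodes a fatty acid carrier, *Slc34a1* the sodium phosphate cotransporter of the proximal tubule, and *Mt1* and *Mt2* encode metallothioneins. *Spp1* ranked at 34 (0.971), *Umod* at 64 (0.955), *Kcnj1* at 100 (0.938), *Sostdc1* at 531 (0.804, over 11 arrays), *Pou3f3* at 5852 and *Tfap2b* at 9929. *Mt2* and *Mt1* stood at -0.37 and -0.27 in number 1 and at 1.38 and 1.21 in number 3, against 0.05 and 1.67 for *Slc12a1*. These r values are descriptions over 12 arrays that share slides, and number 3 held the highest value of each of these 6 genes.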

How the data were processed

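Null over WT was measured in 6 replicates (3 per dye orientation, 2 arrays each). The authors deposited, per the file headers, the median intensity of each spot and its background and a log10 ratio (Cy5 to Cy3) from Agilent Feature Extraction 10.5.1.1, while the submitters' processing notes name version 6.1. The authors' deposited value table holds log10 ratios turned to null over WT (r of 0.998 to 0.999 with the scanner's ratios turned likewise, slopes of 1, column medians of -0.0218 to 0.00645). Why some of its entries are blank is not known.

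Intensities were corrected with normexp (offset 50) and normalized by loess, with 101 to 262 outlier spots per array left out, and spots, then the 2 arrays of a replicate, were averaged. Probes well above background in null or in WT channels on at least 6 of 12 arrays were tested. Channel levels were also scaled with Aquantile and set no probe against another. Symbols came from RefSeq (GRCm38.p6) through accessions and matched 25097 of 41174 probes, of which a gene's brightest tested probe was used. Fits used limma 3.58.1 in R 4.3.3 (lmFit, eBayes) with a dye term, and an F-test of the replicate number beside the dye with 2 residual degrees of freedom, each Benjamini-Hochberg adjusted over all tested probes at 0.05. Replicates sharing a number deviated together (r of 0.587, 0.517 and 0.413 for numbers 1, 2 and 3), so the numbers pair the replicates, through slide or RNA. The block fit averaged each pair. Both tests were checked on simulated data. The number of arrays limits the precision (median SE 0.0506). Members and lists were chosen with earlier results of these data known. Genes named are the 9 members, *Bdkrb2*, *Xist*, *Ddx3y*, the brightest of each list (at most 4, or 3 of marker lists), and the 6 most like *Slc12a1* over 12 arrays. *Ckm*, *Actn2*, *Cubn*, *Ibsp*, *Runx2*, *Alpl* and *Matn1* were named for not being above background.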

Additional observations from a re-analysis of the deposited data

Results flagged for a closer look

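In WT/null replicate 3, *Tfap2b* (A_52_P352771) had a level of 6.88 in the null channel and 7.01 in the WT channel, on the log2 scale, while the nearest other replicates had 6.49 and 6.60. Each of these 2 values stood farther from the other 5 than Dixon's test allows, and 24 sets of 6 values were examined in this way, of which chance would mark about 1. Both channels were high together, but the null channel was not well above background on either array of that replicate. Its ratio of -0.13 is a mean of arrays that disagreed, at -0.51 and 0.24, the first being the noisier array.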

How the results depend on the processing

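Null over WT called 0 members and 0 of the other genes in each alternative run, with 7 members and 58 other genes tested except under no filter (9 members) and the stricter filter (6 members without *Tfap2b*, and 47 other genes): no background correction, median centring, the scanner's ratios, the authors' deposited table, no filter on dim probes, a stricter one, the replicate block, and without each replicate, each number or the noisier array. The block changed no call of a member, and it left 4 called of all probes, against 9. Estimates for *Slc12a1*, *Umod*, *Kcnj1*, *Sostdc1* and *Spp1* kept their sign in 17 settings each. Without number 3 they were 0.10, 0.03, 0.03, 0.09 and 0.24. *Tfap2b* stood at -0.01 and turned to 0.0355 with the scanner's ratios, 0.0357 with the authors' table and 0.0497 without the noisier array, and spanned -0.0436 to 0.0459 without 1 replicate or number. *Pou3f3* spanned -0.00617 to 0.0492 likewise and was -0.0505 by its other probe. The cause was not tested. Median centring lifted the median of all tested probes to 0.14, with *Sostdc1* at 0.62 and *Pou3f3* at 0.197.

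The difference between numbers passed for 4 members, 2 with the authors' table, 3 to 6 in the other settings with all replicates, and 2 to 5 without 1 replicate or number (the last chosen after seeing the data, as were the level scalings). Without number 3 it passed for *Kcnj1* and *Spp1*, since *Slc12a1* (adjusted p = 0.464) and *Umod* (0.439) no longer differed past the threshold. Over all probes it passed for 341, and for 34 (without number 1) to 11450 (median centring). For all probes, null over WT passed for 3 (without number 2) to 62 (without number 3). Without scaling between arrays, *Slc12a1* levels of number 2 over number 1 differed by 2.38 in null and 2.28 in WT, against 2.13 and 2.04 with it. *Slc12a3*, *Irx3* and 2 *Tfap2b* probes lay under the signal that can be told from background.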
